A study of Mus musculus with 12 samples.

Results

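Toll-like receptors were followed in bone-marrow-derived macrophages of WT and miR-210 KO mice, before and after polarization with IL-4. The members were the 10 genes Tlr1, Tlr2, Tlr3, Tlr4, Tlr5, Tlr6, Tlr7, Tlr8, Tlr9 and Tlr13, found by matching the Ensembl identifiers of the count tables to mouse symbols, and they are 10 of the 56941 genes counted. All 10 passed the filter on low counts in every comparison. The remaining Toll-like receptor genes of the mouse were close to the floor of detection, with 0 to 7 counts per library for Tlr11 and 0 to 1 for Tlr12, and were not followed further.

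The mice were C57BL/6J. WT and KO animals came from heterozygous parents, whose floxed miR-210 allele had been deleted in the germline by crossing to a Gata-1 Cre line. Monocytes were isolated from bone marrow and kept for 7 days with 20% FBS and with 30% L929 supernatant, a source of the macrophage growth factor M-CSF. Cells of the M2 groups then received 20 ng/mL IL-4 for 72 hours, and cells of the M0 groups did not. There were 3 libraries in each of the groups WT M0, KO M0, WT M2 and KO M2, made from RNA depleted of rRNA and read as stranded pairs. Each group also forms its own batch in the labels, and batch and group cannot be told apart in any comparison, and the numbers 1 to 3 only name the libraries of a group.

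Toll-like receptors are membrane proteins of innate immunity that bind microbial molecules with their leucine-rich repeats and signal through a cytoplasmic TIR domain. Tlr2, with Tlr1 or Tlr6 as its partner, binds lipopeptides, Tlr4 binds lipopolysaccharide with the help of Cd14 and Ly96, and Tlr5 binds flagellin, all from the cell surface. Tlr3 binds double-stranded RNA, Tlr7 binds single-stranded RNA or its breakdown products, Tlr9 binds CpG DNA and Tlr13 binds bacterial ribosomal RNA. These receptors and Tlr8, for which no ligand is given here, act in endosomes. Unc93b1 delivers them there, and proteases such as the cathepsins process them. The adaptors Myd88 and Ticam1 then pass the signal to NF-kB and to interferon regulatory factors. IL-4 acts through STAT6.

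The library totals were 7930525 to 10167695 counts, and a count of 0 allows up to 3 counts of the total, a limit that covers counting error only. The precursor Mir210 was counted 1 to 5 times in each WT library and was at 0 in all 6 KO libraries. The 6 macrophage markers examined exceeded 1 CPM (library-size-normalised counts, with TMM scaling over all 12 libraries) in every group, with a summed level of 3309 to 4026 CPM. Of the 4 markers of the IL-4 response, Retnla had no count in M0 and averaged 428 CPM in WT M2 and 377 CPM in KO M2, and Chil3 had at most 3 counts in M0 and averaged 1727 CPM in WT M2 and 1457 CPM in KO M2. Arg1 averaged 41.0 CPM in WT M0, 74.1 CPM in KO M0, 1872 CPM in WT M2 and 1920.3 CPM in KO M2. Mrc1 was abundant already in M0, at 1714 CPM in WT and 1659.9 CPM in KO, and averaged 2609.5 CPM in WT M2 and 3044 CPM in KO M2. The lists for T and NK, mast, erythroid and fibroblast cells summed to at most 4.19 CPM in any library, and the neutrophil list to at most 5.55 CPM. The B cell list summed to at least 5.90 CPM, nearly all of it Cd79b at up to 10.0 CPM, with Ms4a1 at 0 in all 12 libraries. The conventional dendritic cell list summed to 0.413 to 1.12 CPM in M0 and 10.18 to 17.9 CPM in M2, in M2 mostly Zbtb46, with at most 2 counts of Flt3, and its part in the differences between M2 and M0 was not tested.

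Because the genotypes differ in miR-210, its mature sequence is shown with the seed, bases 2 to 8, in capitals, as RefSeq gives it with GRCm38.p6.
mmu-miR-210-3p: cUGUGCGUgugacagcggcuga
The match to this seed, ACGCACA, was looked for in the 3′UTR of the canonical GENCODE transcript of each member on GRCm39. None of the 10 members held it or its last 6 bases, and the canonical transcript of Tlr5 is annotated with no 3′UTR. Among 11271 genes with a 3′UTR that were tested over the 12 libraries, 4.16% held the 7-base match and 11.3% the 6-base match. The absence of a match says only that these letters are not in these windows.

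Per exon length, the endosomal receptors Tlr13, Tlr7 and Tlr8 had the most transcript in all 4 groups and Tlr5 the least. This order changed in part with the coding length. Levels are given here as RPKM, the CPM divided by the merged exon length in kilobases, as mean ± SD over 3 libraries. In WT M0, Tlr13 stood at 200.1 ± 19.4 RPKM and Tlr7 at 194 ± 19.3 RPKM, and the ranges of their libraries overlapped. Tlr8 followed at 101 ± 5.16 RPKM, Tlr4 at 56.0 ± 2.91 RPKM and Tlr1 at 30.6 ± 2.01 RPKM, each apart from its neighbours in every library. Tlr2 at 15.9 ± 2.51 RPKM and Tlr3 at 12.7 ± 0.801 RPKM overlapped. Tlr6 at 11 ± 0.177 RPKM, Tlr9 at 9.24 ± 0.735 RPKM and Tlr5 at 0.489 ± 0.144 RPKM closed the order without overlap. KO M0 had the same order but for Tlr6, at 10.9 ± 0.903 RPKM, and Tlr3, at 9.79 ± 0.117 RPKM, whose libraries overlapped.

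In M2 the order changed at its top and in its middle. Tlr8 led in WT M2 with 145 ± 7.40 RPKM and in KO M2 with 157 ± 9.09 RPKM, ahead of Tlr13 at 110.3 ± 3.44 RPKM in WT M2 and 108 ± 6.07 RPKM in KO M2. Tlr7 at 72 ± 3.82 RPKM and Tlr4 at 71.3 ± 2.12 RPKM overlapped in WT M2 and did not in KO M2, where they stood at 85.3 ± 3.74 RPKM and 74.1 ± 2.66 RPKM. Tlr2 fell behind Tlr6 and Tlr3. Its mean was 4.20 ± 0.815 RPKM in WT M2 and 3.81 ± 0.176 RPKM in KO M2. Tlr9 and Tlr5 were the lowest, at 0.451 ± 0.0802 RPKM and 0.236 ± 0.0609 RPKM in WT M2. With the coding length in place of the exon length, Tlr4 ranked above Tlr13 and Tlr7, and Tlr9 ranked last, in both M2 groups, and in KO M0 Tlr4 ranked above Tlr8 and Tlr2 above Tlr1.

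The 5 receptors of the cell surface made up a larger share of the summed RPKM of the 10 genes in M2 than in M0. The share lay between 17.2% and 19.3% in WT M0, between 18.1% and 19.4% in KO M0, between 29.2% and 30.9% in WT M2 and between 28.4% and 29.6% in KO M2. No M0 library reached the range of the M2 libraries, while the genotypes overlapped in each state. The sum for the surface receptors was 114 ± 2.02 RPKM in WT M0 and 143 ± 3.16 RPKM in WT M2. The sum for the endosomal receptors was 517 ± 44.4 RPKM in WT M0 and 333 ± 12.4 RPKM in WT M2. The members of a class did not all move in the same direction. From WT M0 to WT M2, Tlr1 went from 30.6 to 56.0 RPKM and Tlr4 from 56.0 to 71.3 RPKM, but Tlr2 from 15.9 to 4.20 RPKM. Among the endosomal receptors Tlr8 went from 101 to 145 RPKM. Shares by coding length were not computed.

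**Figure D1:**
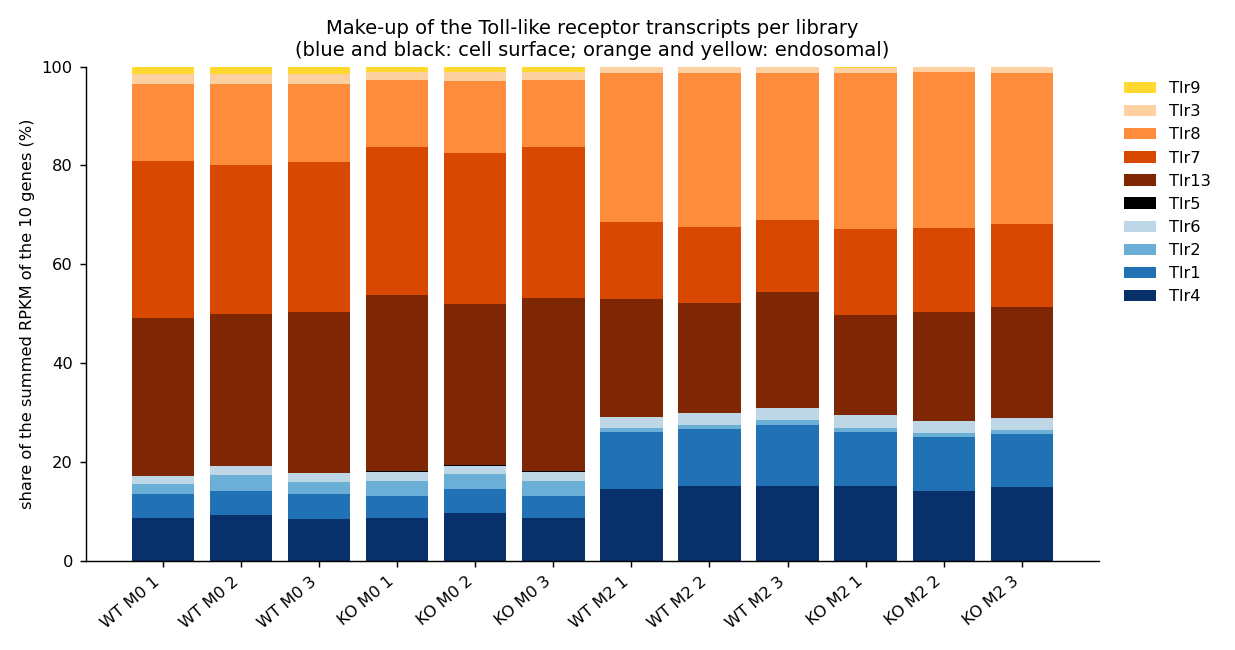
Share of each Toll-like receptor gene in the summed RPKM of the 10 genes (vertical axis, percent) in each of the 12 libraries (horizontal axis), with cell-surface receptors in blue and black and endosomal receptors in orange and yellow. Tlr8 takes 13.6% to 16.5% in the M0 libraries and 29.8% to 31.6% in the M2 libraries, and Tlr7 goes from between 29.8% and 31.7% to between 14.7% and 17.2%.

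M2 and M0 macrophages of the WT mice were compared to ask how IL-4 polarization changed the receptors. Of the 10 members, 3 rose and 6 fell, and Tlr6 was not called. Calls came from edgeR's quasi-likelihood test with Benjamini-Hochberg adjustment over all genes tested, and needed an adjusted p below 0.05, a change of more than 1.2-fold, an average normalized count over 10 and a protein-coding gene. Of the 14266 genes tested in WT, 35.4% were called, 18.4% higher and 17.0% lower. In KO macrophages 3 members rose and 5 fell, against 28.4% of 14331 genes called, 14.3% higher and 14.0% lower. The genes tested include noncoding and low-count genes, which these limits keep from being called. Without the limits on fold change, biotype and average count, 48.1% of genes were called in WT and 35.1% in KO. The members called were then 9 in WT and 8 in KO. The median log2 fold change of the members was -0.94 in WT and -0.54 in KO, and that of all genes tested was within 0.01 of 0 in both. Tlr5, with 10 to 42 counts per library, was a middle value in both medians of the members. The M2 and M0 libraries did not overlap for 9 of the 10 members in each genotype, against 57.0% of all genes in WT and 46.6% in KO. In bulk RNA a smaller share of cells with a transcript and less of it per cell cannot be told apart.

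**Figure D2:**
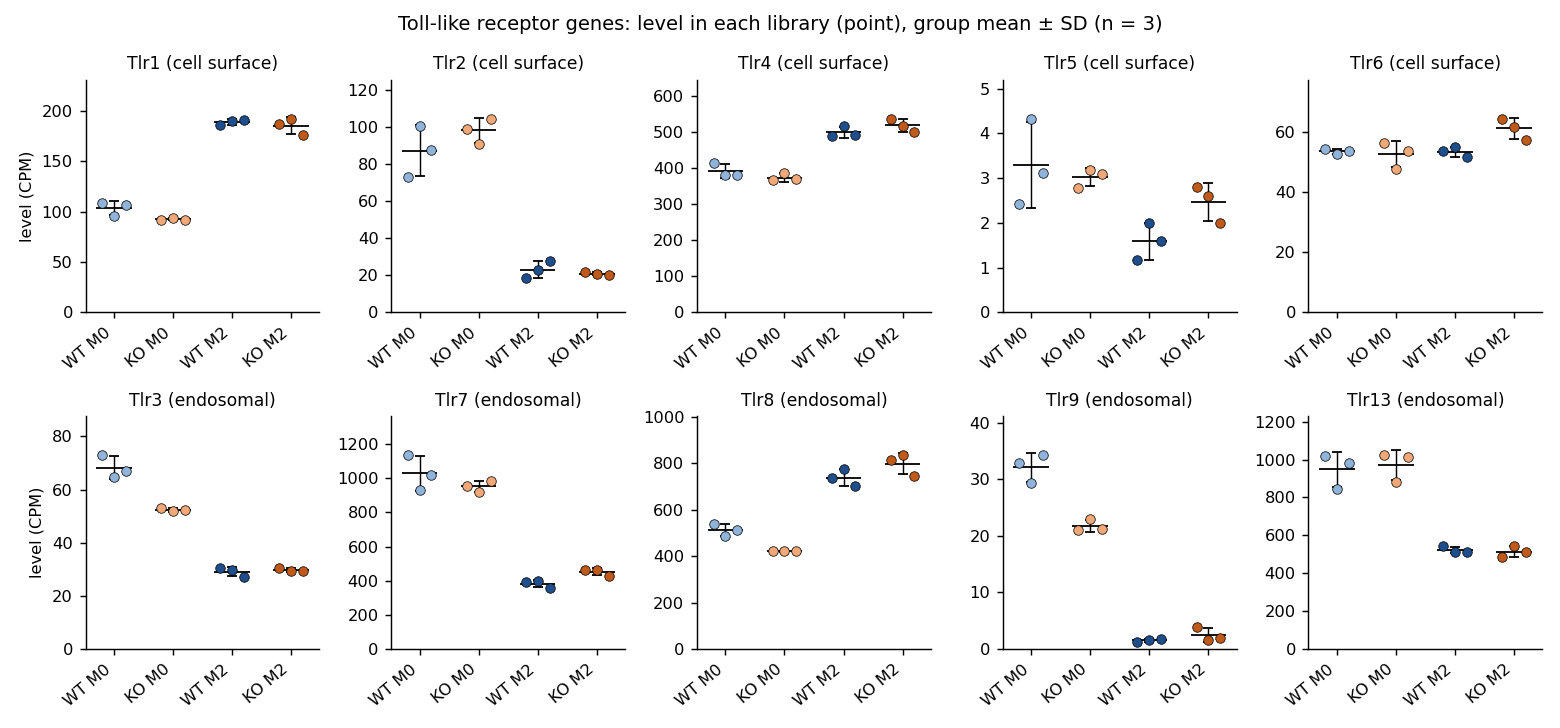
Level in CPM (vertical axes, each from 0) of the 10 Toll-like receptor genes in each library (points) of the 4 groups (horizontal axes), with the group mean (line) and SD (bars, n = 3). Tlr1, Tlr4 and Tlr8 are higher in all M2 libraries than in all M0 libraries, and Tlr2, Tlr3, Tlr7, Tlr9 and Tlr13 are lower.

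Tlr9 fell the most. Its levels were 32.9, 29.3 and 34.3 CPM in WT M0 and 1.29, 1.57 and 1.84 CPM in WT M2, that is 258 to 341 counts against 11 to 15 counts. All M2 libraries lay far below all M0 libraries. The log2 fold change was -4.34 ± 0.16 (SE, n = 3 per group, edgeR adjusted p = 1.42e-10), a 20.2-fold lower level. In KO it went from 21.0, 23.0 and 21.2 CPM in M0 to 3.91, 1.66 and 1.99 CPM in M2, with a log2 fold change of -3.10 ± 0.22 (SE, edgeR adjusted p = 2.53e-07). The first KO M2 library stood above the other 2, and without it the value in KO was -3.55. Tlr9 (ENSMUSG00000045322) lies on GRCm39 chromosome 9 from 106099797 to 106104082. B cells and plasmacytoid dendritic cells are known for this receptor. Ms4a1, a B cell marker, had no count in any library. Of the plasmacytoid list, Ly6d had no count, Siglech had at most 1 and Ccr9 at most 9 per library, Cox6a2 had 31 to 76 counts per library, with means of 5.63 CPM in WT M0, 7.23 CPM in WT M2, 6.18 CPM in KO M0 and 4.16 CPM in KO M2, and Tcf4 made up nearly all of the summed level of 316 to 439 CPM in M0 and 212 to 230 CPM in M2. The part of these markers in the fall was not tested.

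Tlr2 fell in both genotypes, while its partner Tlr1 rose and its partner Tlr6 was not called. Tlr2 had 73.3, 101 and 87.9 CPM in WT M0 and 18.7, 22.8 and 27.7 CPM in WT M2, with a log2 fold change of -1.92 ± 0.14 (SE, edgeR adjusted p = 7.68e-08). KO libraries had 99.0, 91.1 and 105 CPM in M0 and 22.0, 20.8 and 20.1 CPM in M2, with a log2 fold change of -2.21 ± 0.09 (SE, edgeR adjusted p = 2.45e-09). All M0 libraries were above all M2 libraries. Tlr2 lies on GRCm39 chromosome 3 from 83743576 to 83749074. Tlr1, which pairs with Tlr2 for triacylated lipopeptides, rose from 108, 95.9 and 106 CPM to 186, 190.4 and 191 CPM in WT, by 0.88 ± 0.07 on the log2 scale (SE, edgeR adjusted p = 1.21e-07). In KO Tlr1 rose from 91.7, 94.1 and 91.8 CPM to 187, 192 and 176 CPM, by 1.02 ± 0.07 (SE, edgeR adjusted p = 2.69e-07). Tlr6, which pairs with Tlr2 for diacylated lipopeptides, lay between 52.7 and 54.4 CPM in WT M0 and between 51.6 and 55.1 CPM in WT M2, with a log2 fold change of 0.01 (95% interval -0.14 to 0.16). In KO its libraries lay between 47.9 and 56.5 CPM in M0 and between 57.6 and 64.6 CPM in M2, without overlap, but the test did not call it (log2 fold change 0.24, edgeR adjusted p = 0.0678).

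The ratio of RPKM of Tlr1 to Tlr2 was 1.54 to 2.41 in WT M0 and 11.2 to 16.2 in WT M2, and 1.43 to 1.68 in KO M0 and 13.8 to 15.1 in KO M2. That of Tlr6 to Tlr2 was 0.591 to 0.840 in WT M0 and 2.11 to 3.25 in WT M2, and 0.582 to 0.646 in KO M0 and 3.25 to 3.36 in KO M2. Each ratio was higher in all M2 libraries than in all M0 libraries. Tlr1 and Tlr6 are neighbours on GRCm39 chromosome 5, at 65082022 to 65090941 and 65108704 to 65203497, on the same strand and 17762 bases apart with no protein-coding gene between them. Of the 50-base stretches of the longest transcript, 15.1% for Tlr1 and 10.4% for Tlr6 also occur in another gene, nearly all in each other, so reads from these stretches could be counted on either gene or on none.

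Tlr4, the lipopolysaccharide receptor, rose in both genotypes. It had 416, 380.2 and 381 CPM in WT M0 and 489, 517 and 493 CPM in WT M2, and the log2 fold change was 0.36 ± 0.06 (SE, edgeR adjusted p = 0.000340). In KO it had 366, 388 and 369 CPM in M0 and 538, 518 and 501 CPM in M2, and the log2 fold change was 0.49 ± 0.07 (SE, edgeR adjusted p = 0.000123). The states did not overlap in either genotype. Tlr4 lies on GRCm39 chromosome 4 from 66745783 to 66849936, and 2 annotated noncoding genes on the same strand, Gm57137 and Gm68947, overlap it, with 6457 counts over the 12 libraries assigned to this pair. Tlr5, the flagellin receptor, was scarce throughout, with 10 to 42 counts per library. It had 2.42, 4.33 and 3.11 CPM in WT M0 and 1.17, 1.99 and 1.60 CPM in WT M2, and fell by 1.04 ± 0.29 on the log2 scale (SE, edgeR adjusted p = 0.0102). Without the first WT M2 library (adjusted p = 0.0532) or with the DESeq2 Wald test (adjusted p = 0.0510) it was no longer called. In KO it had 2.79, 3.19 and 3.10 CPM in M0 and 2.81, 2.60 and 1.99 CPM in M2, which overlap, with a log2 fold change of -0.27 (95% interval -0.81 to 0.26). Tlr5 lies on GRCm39 chromosome 1 from 182782311 to 182805500.

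Tlr7 and Tlr8, neighbours on the X chromosome, moved in opposite directions. Tlr7 had 1135, 931 and 1019.9 CPM in WT M0 and 391, 396 and 359 CPM in WT M2, a 2.67-fold lower level (log2 fold change -1.42 ± 0.08, SE, edgeR adjusted p = 7.03e-09). The KO libraries had 952, 922 and 985 CPM in M0 and 463, 464 and 429 CPM in M2, a 2.08-fold lower level (log2 fold change -1.06 ± 0.07, SE, edgeR adjusted p = 1.61e-07). Tlr8 had 541, 488 and 513 CPM in WT M0 and 737, 777 and 701 CPM in WT M2, and rose by 0.53 ± 0.07 on the log2 scale (SE, edgeR adjusted p = 1.89e-05). In KO it had 422, 421 and 421 CPM in M0 and 814, 835 and 747 CPM in M2, and rose by 0.94 ± 0.07 (SE, edgeR adjusted p = 4.95e-07). The ratio of RPKM of Tlr7 to Tlr8 was 1.83 to 2.02 in WT M0 and 2.11 to 2.25 in KO M0, and 0.490 to 0.510 in WT M2 and 0.534 to 0.552 in KO M2. Tlr7 was thus the more abundant of the pair in every M0 library and Tlr8 in every M2 library. Tlr8 lies at 166024184 to 166047325 and Tlr7 at 166086758 to 166113605 of GRCm39 chromosome X, on the same strand with 39432 bases and no annotated gene between them. Of the 50-base stretches of the longest transcript of Tlr7, 6.42% occur in other genes, and none of those of Tlr8 do.

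Tlr3 and Tlr13 fell in both genotypes. Tlr3 had 72.9, 64.6 and 67.0 CPM in WT M0 and 30.4, 29.7 and 27.1 CPM in WT M2 (log2 fold change -1.21 ± 0.08, SE, edgeR adjusted p = 4.14e-08). Its KO libraries had 53.0, 51.8 and 52.3 CPM in M0 and 30.4, 29.2 and 29.5 CPM in M2 (log2 fold change -0.80 ± 0.08, SE, edgeR adjusted p = 8.05e-06). The libraries of the genotypes did not overlap in M0 and overlapped in M2. Tlr3 lies on GRCm39 chromosome 8 from 45848702 to 45864117. Tlr13, found in mice and not in humans, had 1019.9, 845 and 979.7 CPM in WT M0 and 542, 515 and 512 CPM in WT M2 (log2 fold change -0.85 ± 0.08, SE, edgeR adjusted p = 7.63e-07). In KO it had 1023, 879.7 and 1014 CPM in M0 and 486, 543 and 509.8 CPM in M2 (log2 fold change -0.90 ± 0.08, SE, edgeR adjusted p = 2.82e-06). The libraries of the genotypes overlapped in each state. Tlr13 lies on GRCm39 chromosome X from 105186810 to 105204533.

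**Figure D3:**
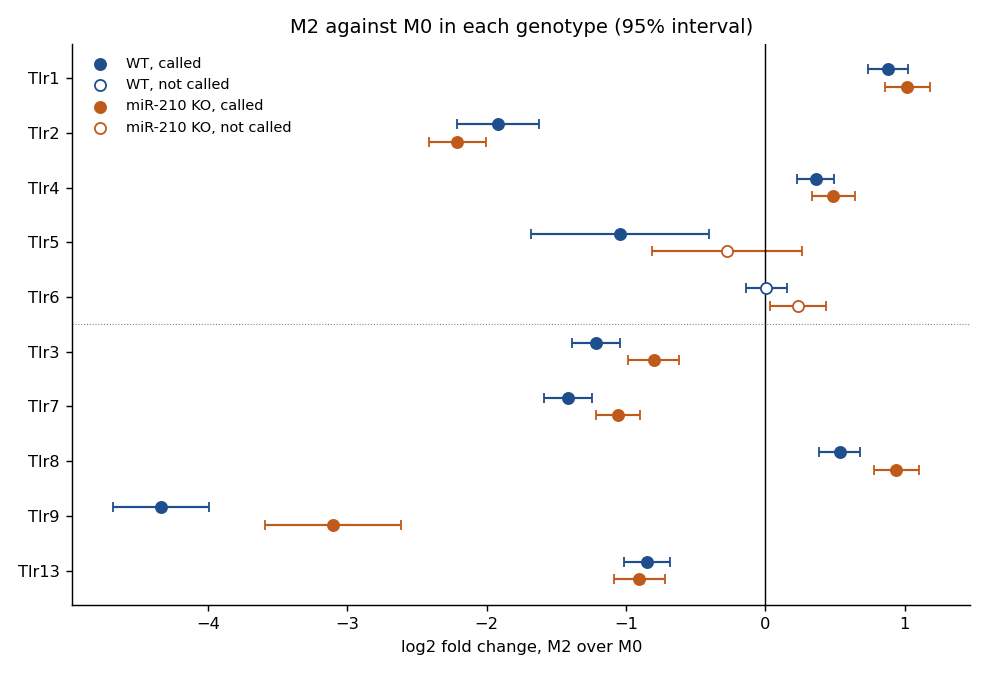
Log2 fold change of M2 over M0 (horizontal axis) for the 10 Toll-like receptor genes (vertical axis, cell surface above the dotted line and endosomal below) in WT (blue) and miR-210 KO (orange), with 95% intervals and filled points for called genes. Tlr9 lies lowest at -4.34 in WT and -3.10 in KO, and Tlr1, Tlr4 and Tlr8 lie above 0 in both.

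The bases before the start of 3 members are shown because Tlr9 and Tlr2 had the largest falls with IL-4 and Tlr8 rose while its neighbour Tlr7 fell. They are RefSeq sequences of a GRCm38.p6 table, which held 8 of the 10 members and lacked Tlr4 and Tlr7. The bases before Tlr7 could therefore not be set beside those of Tlr8. The sequences were placed on GRCm39 by an exact and single match. Only bases before the first annotated base of the gene are printed, 5′ to 3′ on the strand of the gene. Capitals mark motifs.
Tlr8, chrX:166047326-166047575, minus strand: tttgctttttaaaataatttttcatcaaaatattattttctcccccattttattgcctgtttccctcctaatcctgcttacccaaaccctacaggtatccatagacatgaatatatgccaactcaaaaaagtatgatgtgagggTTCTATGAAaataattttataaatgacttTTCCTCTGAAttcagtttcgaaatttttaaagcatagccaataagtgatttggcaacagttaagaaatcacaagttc
Tlr9, chr9:106099547-106099796, plus strand: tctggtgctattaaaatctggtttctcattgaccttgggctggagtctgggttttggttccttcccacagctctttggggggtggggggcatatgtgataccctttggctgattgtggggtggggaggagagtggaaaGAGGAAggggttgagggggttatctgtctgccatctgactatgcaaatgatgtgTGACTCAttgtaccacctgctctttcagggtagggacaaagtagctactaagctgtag
Tlr2, chr3:83749075-83749165, minus strand: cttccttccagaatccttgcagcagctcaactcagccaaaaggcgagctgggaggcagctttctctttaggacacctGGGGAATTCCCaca
The motifs searched on both strands of the 250 bases before each start were TTCNNNNGAA (the STAT6 site), TTCNNNGAA (GAS), GAGGAA (PU.1), TGANTCA (AP-1), CACGTG (E-box) and, by name alone, the ISRE and the NF-kB site. Tlr8 held the STAT6 match from -77 to -68, with a GAGGAA match on the minus strand inside it, and a GAS match from -106 to -98. Tlr9 held GAGGAA from -112 to -107 and TGACTCA from -58 to -52, and Tlr2 held overlapping NF-kB matches from -173 to -163, counted from the RefSeq start. Of all 32851 promoters of this length, 5.85% held the STAT6 match, 7.02% GAS, 23.3% GAGGAA, 2.98% ISRE, 6.75% AP-1, 6.02% E-box and 2.13% NF-kB. Among the other members, Tlr3 held NF-kB, Tlr13 held GAGGAA, Tlr6 held ISRE at 1 of its 2 starts, Tlr1 held GAGGAA at 1 start and GAS and E-box at the other, and Tlr5 held none. Among the 8 members searched, only Tlr8 held the STAT6 match. Tlr1 rose more than Tlr8 on the log2 scale in both genotypes and did not hold it. These are matches of letters and not shown to be sites.

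KO and WT macrophages were compared in M0 to ask what the loss of miR-210 changed before polarization. Of the 10 members, 1 was called, Tlr9, which was lower in KO, against 0.461% of the 14089 genes tested. Calls between genotypes needed only the limits on the adjusted p and on the fold change. Tlr9 had 32.9, 29.3 and 34.3 CPM in WT M0 and 21.0, 23.0 and 21.2 CPM in KO M0, and its log2 fold change was -0.58 ± 0.10 (SE, n = 3 per group, edgeR adjusted p = 0.0342), a 1.49-fold lower level. Every KO M0 library was below every WT M0 library. The call was lost without library 1 or 3 of either group, with edgeR adjusted p values of 0.121 to 0.245 and log2 fold changes of -0.57 to -0.52, and was kept without library 2 of WT M0 (adjusted p = 0.00995) or of KO M0 (adjusted p = 0.0386).

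Tlr3 and Tlr8 also had lower values in every KO M0 library than in every WT M0 library and were not called. Tlr3 had 53.0, 51.8 and 52.3 CPM in KO against 72.9, 64.6 and 67.0 CPM in WT (log2 fold change -0.39, 95% interval -0.58 to -0.21, edgeR adjusted p = 0.0770). For Tlr8 the values were 422, 421 and 421 CPM in KO against 541, 488 and 513 CPM in WT (log2 fold change -0.30, 95% interval -0.47 to -0.13, edgeR adjusted p = 0.142). Both passed with the DESeq2 Wald test (adjusted p = 0.0384 for Tlr3 and 0.0289 for Tlr8). The fourth member without overlap was Tlr1, at 91.7 to 94.1 CPM in KO and 95.9 to 108 CPM in WT (log2 fold change -0.18, edgeR adjusted p = 0.500). In all, 4 of the 10 members did not overlap between the genotypes, against 15.0% of all genes. The other 6 members had adjusted p values from 0.715 to 0.964, and the median log2 fold change of the 10 was -0.14. The interval was widest for Tlr5, from -0.72 to 0.43, and for Tlr4 and Tlr7 it was -0.25 to 0.09 and -0.32 to 0.07.

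In M2 none of the 10 members was called between KO and WT by edgeR at an adjusted p under 0.05, against 0.98% of the 13980 genes tested, and the DESeq2 Wald test called none as well. At an unadjusted p under 0.05 there were 3, Tlr5, Tlr6 and Tlr7, all with higher values in KO, beside 1498 of all genes. Tlr7 came closest, with 463, 464 and 429 CPM in KO M2 and 391, 396 and 359 CPM in WT M2 (log2 fold change 0.25, 95% interval 0.13 to 0.37, edgeR adjusted p = 0.0508). Every KO library was above every WT library. Without KO M2 library 3, edgeR called Tlr7 (log2 fold change 0.28, adjusted p = 0.0107). Tlr6 had 64.6, 61.7 and 57.6 CPM in KO and 53.8, 55.1 and 51.6 CPM in WT, again without overlap (log2 fold change 0.20, 95% interval 0.05 to 0.35, edgeR adjusted p = 0.282). The values of Tlr5, with 16 to 25 counts in KO and 10 to 19 in WT, gave a log2 fold change of 0.63 (95% interval 0.03 to 1.23, edgeR adjusted p = 0.437). Tlr9 at 11 to 32 counts gave 0.67 (95% interval -0.06 to 1.39), and 0.22 without KO M2 library 1. Groups did not overlap for Tlr5, Tlr6 and Tlr7, that is 3 of the 10 members, against 16.1% of all genes, although the nearest libraries of the groups were both at 1.99 CPM for Tlr5. Tlr8 gave 0.12 (edgeR adjusted p = 0.493) and Tlr2 -0.13 (95% interval -0.39 to 0.13). For Tlr1, Tlr3, Tlr4 and Tlr13 the log2 fold changes lay between -0.03 and 0.06, with intervals inside -0.15 to 0.21.

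**Figure D4:**
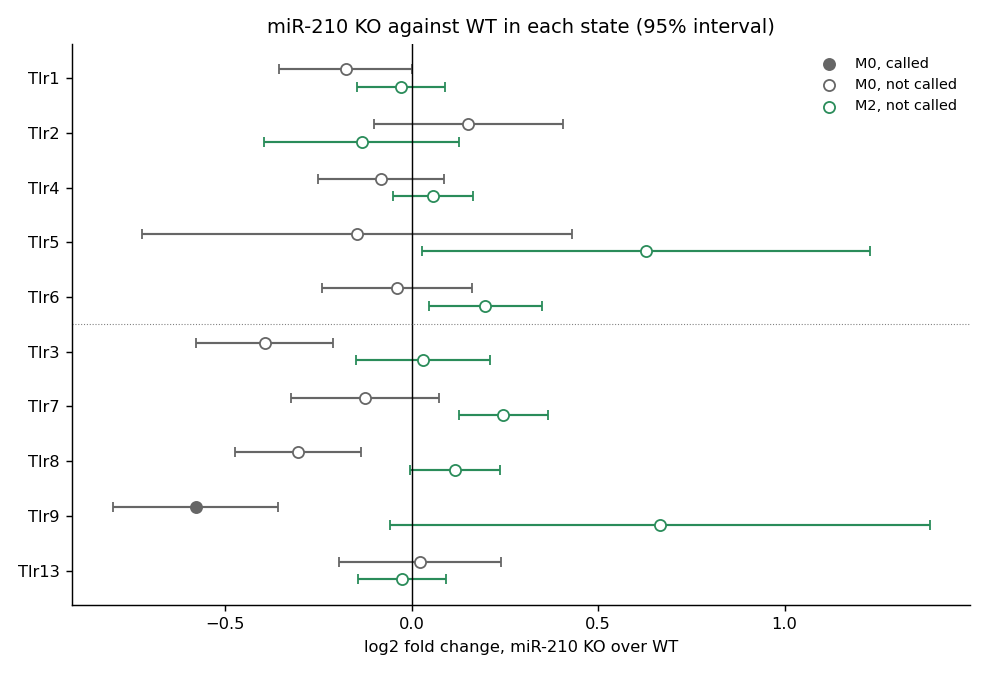
Log2 fold change of miR-210 KO over WT (horizontal axis) for the 10 Toll-like receptor genes (vertical axis) in M0 (grey) and M2 (green), with 95% intervals and filled points for called genes. Tlr9 in M0, at -0.58, is the 1 filled point, and the median of the 10 genes is -0.14 in M0 and 0.09 in M2.

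The interaction of genotype and polarization was fitted over all 12 libraries to ask whether the response to IL-4 differed between KO and WT. No member passed an adjusted p under 0.05 with edgeR, and of the 14825 genes tested 0.0% did, while 1327 had an unadjusted p under 0.05. Among the members 5 had an unadjusted p under 0.05, each with a positive interaction, that is, a more positive M2 to M0 log2 fold change in KO than in WT. These were Tlr8 at 0.41 ± 0.09 (SE, edgeR adjusted p = 0.126), Tlr3 at 0.42 ± 0.11 (adjusted p = 0.190), Tlr9 at 1.24 ± 0.33 (adjusted p = 0.199), Tlr7 at 0.37 ± 0.11 (adjusted p = 0.253) and Tlr6 at 0.23 ± 0.11 (adjusted p = 0.554). Of these 5, 4 were endosomal receptors, as were 5 of all 10 members, and the interaction was above 0 for 8 of the 10. The value of Tlr9 was 0.79 without KO M2 library 1. The DESeq2 Wald test called 83 genes, 0.29% of all genes it tested, with Tlr8 among them (0.41, adjusted p = 0.00703). For Tlr13 the interaction was -0.05 (95% interval -0.30 to 0.19) and for Tlr1 0.14 (95% interval -0.05 to 0.34). Tlr2 at -0.29, Tlr4 at 0.13 and Tlr5 at 0.77 had adjusted p values of 0.581 to 0.679.

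The rest of the pathway was followed in a list of 61 genes in 7 roles. Between M2 and M0 in WT, 14 rose and 20 fell of 59 tested, with a median log2 fold change of -0.07, against 18.4% higher and 17.0% lower of all genes tested. In KO 13 rose and 18 fell of 59, with a median of -0.09, against 14.3% higher and 14.0% lower of all genes. The counts by role stand against the same shares. Called in both genotypes were 30 genes, 13 higher and 17 lower, each in the same direction. Of 6 proteins that bind ligands or assist the receptors, 1 rose and 4 fell in each genotype. Lbp, the lipopolysaccharide-binding protein, fell from 5.53 to 8.29 CPM in WT M0 to 0.86 to 1.88 CPM in WT M2 (log2 fold change -2.14 ± 0.27, SE, edgeR adjusted p = 2.17e-05; -2.22 in KO). Of 8 chaperones and trafficking proteins, 2 rose and 1 fell in each genotype. Tasl, the endolysosomal adaptor that recruits Irf5 beside Slc15a4, fell by 1.63 ± 0.08 on the log2 scale in WT (SE, edgeR adjusted p = 3.42e-09; by 1.24 in KO), and Slc15a3, a lysosomal transporter of histidine and peptides, rose by 1.25 ± 0.06 (SE, edgeR adjusted p = 1.97e-09; by 1.33 in KO). Unc93b1 was not called (edgeR adjusted p = 0.0891 in WT and 0.285 in KO) and held 679 to 718 CPM in WT M2 against 735 to 808 CPM in WT M0.

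All 5 endosomal proteases were called in each genotype, 3 higher and 2 lower. The largest change was that of Ctsk, cathepsin K, at 5.06 to 11.5 CPM in WT M0 and 40.9 to 48.0 CPM in WT M2 (log2 fold change 2.64 ± 0.19, SE, edgeR adjusted p = 8.55e-08; 1.86 in KO). Of the 6 adaptors tested of 7, 1 rose and 2 fell in WT, and 1 rose and 1 fell in KO. Pik3ap1, which links the receptors to phosphoinositide 3-kinase, had a log2 fold change of -1.15 ± 0.06 (SE, edgeR adjusted p = 6.22e-09; -1.10 in KO). None of the 16 kinases and ubiquitin ligases rose, and 7 fell in WT and 5 in KO. Among them Peli1, a ubiquitin ligase, fell by 0.96 ± 0.07 (SE, edgeR adjusted p = 9.52e-08; by 0.78 in KO) and Ikbke, a kinase of the interferon branch, by 0.87 ± 0.11 (SE, edgeR adjusted p = 2.34e-05; by 1.17 in KO). Of 7 transcription factors, 2 rose and 2 fell in each genotype. Irf7, the factor that drives type I interferon genes downstream of Tlr7 and Tlr9, fell from 364 to 556 CPM in WT M0 to 51.6 to 58.8 CPM in WT M2 (log2 fold change -3.08 ± 0.13, SE, edgeR adjusted p = 5.93e-10; -3.07 in KO).

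Of the 12 genes listed as negative regulators 11 were tested, and 5 rose and 2 fell in WT against 4 and 3 in KO. The largest increases were those of Lrrc32, which encodes GARP, a carrier of latent TGF-beta, and of Il1rl1, the receptor of IL-33. Lrrc32 stands in this role by the list alone, and a part of it in Toll-like receptor signalling was not tested. The counts of this role and of the whole pathway list include it. Lrrc32 had at most 3 counts in any M0 library and 107 to 145 CPM in WT M2 and 80.7 to 88.8 CPM in KO M2. Il1rl1 had 4 to 7 counts per M0 library and 36.1 to 53.4 CPM in WT M2 and 25.7 to 30.3 CPM in KO M2. Between KO and WT in M0, 1 of 57 pathway genes tested was called, against 0.461% of all genes, namely Wdfy1, an adaptor that helps recruit Ticam1 to Tlr3 and Tlr4. It had 22.5, 30.1 and 26.2 CPM in KO M0 and 72.5, 68.5 and 63.5 CPM in WT M0 (log2 fold change -1.39 ± 0.11, SE, edgeR adjusted p = 9.13e-05). In M2, 3 of 59 were called, against 0.98% of all genes, all lower in KO, namely Wdfy1 (-1.28 ± 0.08, SE, edgeR adjusted p = 2.05e-07), Il1rl1 (-0.64 ± 0.12, SE, edgeR adjusted p = 0.0183) and Lrrc32 (-0.52 ± 0.10, SE, edgeR adjusted p = 0.0167). No pathway gene was called for the interaction by edgeR.

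**Figure D5:**
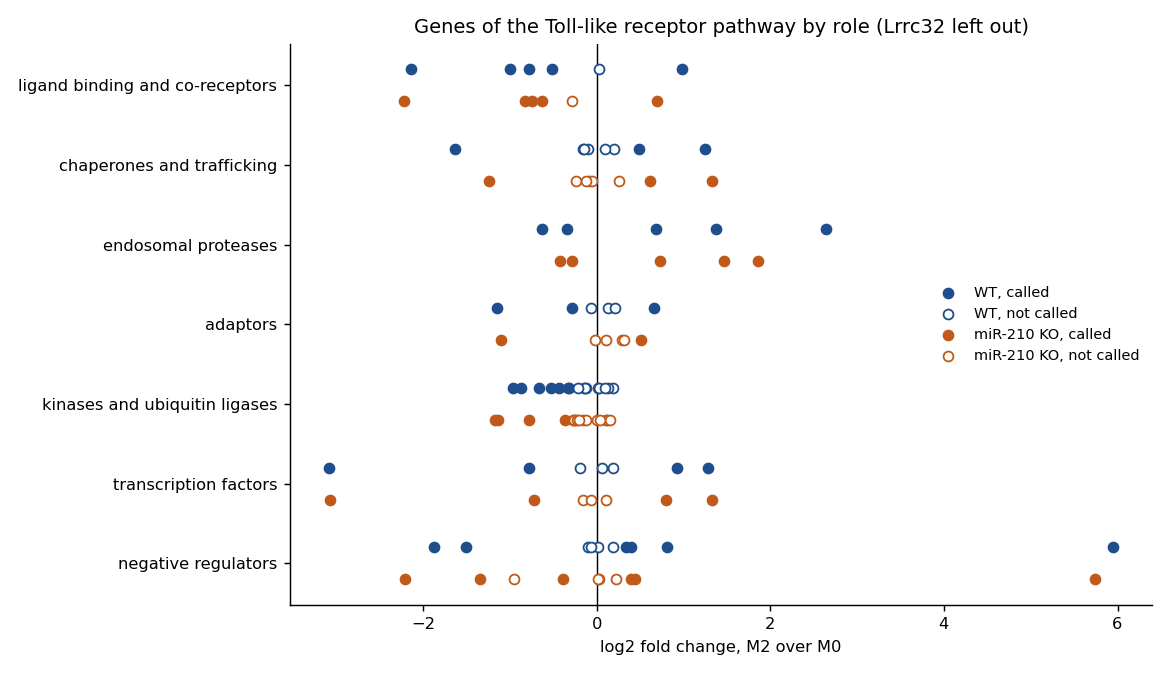
Log2 fold change of M2 over M0 (horizontal axis) for the genes of the pathway list grouped by role (vertical axis) in WT (blue) and miR-210 KO (orange), with filled points for called genes. Lrrc32 is left out because its M0 libraries hold at most 3 counts; Irf7 lies at -3.08 in WT and -3.07 in KO, and no kinase or ubiquitin ligase has a filled point above 0.

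The gene whose pattern over the 12 libraries was closest to each member was taken as the one with the smallest root mean square (RMS) difference of log2 CPM, each gene centred on its own mean, among genes over 1 CPM. For Tlr2 this was Irak3 (RMS 0.14), a negative regulator of the Myd88 pathway and itself on the pathway list. For Tlr9 it was Trim30c (RMS 0.27), of the tripartite motif family, and for Tlr3 Trim12a (RMS 0.07), of the same family. For Tlr1 it was Snx5 (RMS 0.07), a sorting nexin of endosomal retrieval, for Tlr13 Rab7b (RMS 0.05), a GTPase of late endosomes, and for Tlr8 Rab3il1 (RMS 0.08). Tlr4 was closest to Ints6 (RMS 0.04), Tlr6 to Ikbip (RMS 0.06), Tlr7 to Ptpn18 (RMS 0.10) and Tlr5 to Nek3 (RMS 0.20). The 12 points fall into 4 groups, and the genes of a pair share libraries and depth.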

How the data were processed

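RNA of 12 samples, 3 per group, was sequenced. Per the labels and the study's methods, the authors trimmed reads (Trimmomatic), removed duplicates (Picard), aligned them to GRCm39 (STAR) and assigned them to genes in a stranded mode (featureCounts). The authors deposited raw counts, with 6 libraries per file, and a second, normalized signal in which each library of a file is scaled by its DESeq2 size factor. The signal served here only as an alternative for levels. Column names give the group of a library but not its GEO sample. No source ties libraries to separate animals, so p-values measure the spread between these samples, which may be technical.

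Symbols, positions and lengths came from GENCODE on GRCm39, which matched 56323 of 56941 identifiers. Counts were tested with edgeR 4.0.16 in R 4.3.3 (TMM, filterByExpr, quasi-likelihood F test), using both groups of a comparison, or all groups for the interaction. The SE is the log2 fold change over the square root of F. Alternatives were DESeq2 1.42.0, other normalizations and filters, other limits, a model of all groups, a block for library number and leaving out each library. The fitting code was tested on simulated counts. Pathway genes are named where called between genotypes, and for M2 against M0 by the largest called change of a role in WT (2 for roles of more than 7 genes). Unc93b1, the genes overlapping Tlr4 and the 3 promoters shown were chosen after values were seen. The members and lists were chosen with earlier results of these data known. Protein sequences were not used here.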

Additional observations from a re-analysis of the deposited data

Results flagged for a closer look

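Tlr8 was singled out because the difference between its responses to IL-4 in KO and WT passed 2 of the alternative tests over all 12 libraries. The interaction was 0.41 on the log2 scale with the DESeq2 Wald test (adjusted p = 0.00703) and 0.40 with edgeR without a filter on low counts (adjusted p = 0.0161), against an adjusted p of 0.126 with the filter. The DESeq2 fit called 0.29% of all genes and the fit without a filter 1.19%. No member passed with the other normalizations, a stricter filter, the replicate block or any library left out. Its M2 to M0 log2 fold change was 0.53 in WT and 0.94 in KO, and its M0 level was 514 ± 26.3 CPM in WT and 421 ± 0.706 CPM in KO (SD, n = 3).

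Tlr9 was singled out because the same difference passed edgeR without a filter, at 1.23 on the log2 scale (adjusted p = 0.0109), against 0.199 with the filter. It was 0.79 without KO M2 library 1. The M2 libraries hold 11 to 32 counts of Tlr9.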

How the results depend on the processing

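In the M0 comparison of KO and WT, against 1 member called, there were 3 with the DESeq2 Wald test, with all 12 libraries in one model and with the replicate block, 2 without a filter, 0 with a limit of 1 on the fold change and 0 to 2 with a library left out. In M2 the count of 0 became 1, Tlr7, without KO M2 library 3, a range of 0 to 1. For M2 against M0, a limit of 1 left 5 of 9 called members in WT and 4 of 8 in KO, and leaving out a library gave 8 to 9 in each. Tlr6 in KO was called without KO M0 library 1 (0.29, adjusted p = 0.0364). For the interaction, 1 member passed with DESeq2 and 2 without a filter. Every called member kept its direction under every alternative. Values that changed sign were all uncalled. With a library left out, KO against WT in M0 ranged from -0.31 to 0.11 for Tlr5, from -0.093 to 0.035 for Tlr6 and from -0.045 to 0.098 for Tlr13. In M2 it ranged from -0.059 to 0.0065 for Tlr1, from -0.26 to 0.011 for Tlr2, from -0.014 to 0.069 for Tlr3 and from -0.069 to 0.015 for Tlr13. M2 against M0 in WT ranged from -0.0097 to 0.037 for Tlr6, which was -0.0104 with upper-quartile normalization, and the interaction of Tlr13 from -0.13 to 0.013.

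No label ties libraries of the same number across groups. Their deviations from the group means correlated from -0.27 to 0.33, with 0.33 for library 2 of KO and WT in M0. Library 2 also differed most from the others of its group in both M0 groups. The chi-square per degree of freedom between the counts of a pair was 8.47 and 6.22 with WT M0 library 2, against 2.90 for libraries 1 and 3. In KO M0 it was 9.91 and 8.47 with library 2, against 6.65. Whether libraries of the same number share an origin was not settled. The replicate block changed no member's call but those of Tlr3 and Tlr8 in M0. Over all genes, the M0 comparison called 65, against 207 with DESeq2, 532 without a filter, 248 with all 12 libraries, 284 with the block, 27 with a limit of 1 and 20 (without WT M0 library 3) to 302 (without WT M0 library 2) with a library left out. The M2 comparison called 137, against 360 without a filter, 60 with all 12 libraries, 289 with the block, 40 with a limit of 1 and 53 to 215 with a library left out. Polarization called 1446 genes in WT and 1292 in KO with a limit of 1. The interaction called 83 genes with DESeq2, 341 without a filter and 0 to 77 with a library left out. The causes were not tested. Tlr5 and, in M2, Tlr9 rest on so few counts that small differences were not detectable.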
